A study of Mus musculus with 6 samples.

Results

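Autophagy delivers cytoplasm, organelles and protein aggregates to the lysosome. The ULK kinase complex starts the formation of a phagophore, the lipid kinase complex around Beclin 1 marks it with phosphatidylinositol 3-phosphate, and 2 ubiquitin-like conjugation systems attach proteins of the ATG8 family (LC3 and GABARAP) to the growing membrane. Cargo receptors such as p62 and BNIP3 bind both cargo and ATG8 proteins, the SNARE protein syntaxin 17 serves the fusion with lysosomes, and transcription factors of the TFEB family switch on autophagy and lysosome genes. In adipocytes autophagy takes part in differentiation and in the removal of mitochondria, and it is one of the routes by which cells under endoplasmic reticulum stress clear misfolded protein. The messenger RNAs of 45 genes of this machinery were chosen by gene symbol from what their products do, with earlier results of these data known. All 45 were found among the 21456 genes of the table, 44 under their current symbol and Atg101 under an older one. Averaged over the 6 mice, all 45 reached a normalized count of 10, the minimum for testing, and were among the 16157 genes tested.

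RNA-seq was performed on WATs (white adipose tissues) of 3 control mice, numbered 3, 4 and 5, and 3 Ntsr2 AKO mice with the same numbers. Control mice carried the floxed Ntsr2 gene (Ntsr2 flox/flox), and Ntsr2 AKO mice carried it together with Adipoq-cre, which removes the neurotensin receptor NTSR2 from adipocytes only, so that other cells of the tissue kept the gene. Both groups were fed a chow diet. The fat depot and the age of these mice are not given in the sources used here. The study concerned neurotensin signaling through NTSR2 in adipocytes and food intake, with the unfolded protein response of WATs among its readouts. The comparison made here is that of Ntsr2 AKO with control mice.

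The libraries held 60405373 to 66098226 reads in control mice and 54085088 to 56268725 reads in Ntsr2 AKO mice, so every control library was deeper. The normalized counts of Ntsr2, the targeted gene, were 63.96 to 152.5 in control mice and 0 to 8.29 in Ntsr2 AKO mice, and the log2 fold change was -4.81 (standard error 0.91, limma adjusted p = 0.499, DESeq2 adjusted p = 1.1e-04). All 10 adipocyte markers were detected, and they took 3.91% to 5.76% of the summed counts in control mice and 5.12% to 5.42% in Ntsr2 AKO mice. The 12 skeletal muscle markers together took 4.85% of the counts in control 5, 0.178% in Ntsr2 AKO 4 and 0.386% in Ntsr2 AKO 5, where none of the 12 was at 0. In control 3, control 4 and Ntsr2 AKO 3 they took at most 0.00279%, with 3, 4 and 6 markers at 0. The 6 macrophage markers summed to normalized counts of 26116 to 80517 in control mice and 27867 to 65984 in Ntsr2 AKO mice. Among the 10 marker lists for cell types, an unadjusted limma p under 0.05 was reached by Cidea, a brown adipocyte marker with a higher mean in Ntsr2 AKO mice, and Krt19, a mesothelial marker with a lower mean, and no marker passed the adjusted threshold. In bulk tissue, fewer cells of a type and less RNA per cell cannot be told apart. The p-values measure the spread between these 3 and 3 mice.

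Differences are log2 fold changes, Ntsr2 AKO minus control, from limma on log2(normalized count + 1), with p-values adjusted over all genes tested by the Benjamini-Hochberg method. No autophagy gene passed an adjusted p under 0.05 in limma, edgeR or DESeq2. Over all genes, limma passed 0.00619% (Egr1 alone), edgeR 0% and DESeq2 1.5%. At an unadjusted p under 0.05, limma found 2 of the 45 genes with a lower mean in the absence of adipocyte Ntsr2 (4.44%, beside 5.27% of all genes tested) and 0 with a higher mean (beside 3.08%). The 2 genes were the cargo receptors Sqstm1 and Bnip3. At the same unadjusted limit edgeR found 1 lower and 0 higher (beside 4.8% and 3.41% of all genes), and DESeq2 found 3 lower and 0 higher (beside 6.5% and 4.08%). These shares did not stand out from the background.

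The measured differences of the autophagy genes were small and their errors narrow. The log2 fold changes ran from -0.56 (Atg9a) to 0.23 (Stx17) with a median of -0.08, against -0.01 over all genes tested. A difference below 0 was found in 29 of 45 genes (64.4%, against 51.0% of all genes). The median standard error was 0.14, against 0.24 for all genes tested and 0.19 for the 12606 genes at least as abundant as the least abundant autophagy gene. That set of 12606 genes had a lower limit of abundance only and was not matched to the autophagy genes in level. For 32 of 45 genes (71.1%) the 95% interval lay within 1.5-fold in both directions, against 30.5% of all genes and 39.0% of that set. It lay within 2-fold for 42 of 45 genes (93.3%), against 58.9% and 74.4%. For these genes a change of the transcript beyond such a size lies outside the 95% interval of the data. The 3 genes with wider intervals were Atg9a, Atg9b and Tfeb.

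**Figure D1:**
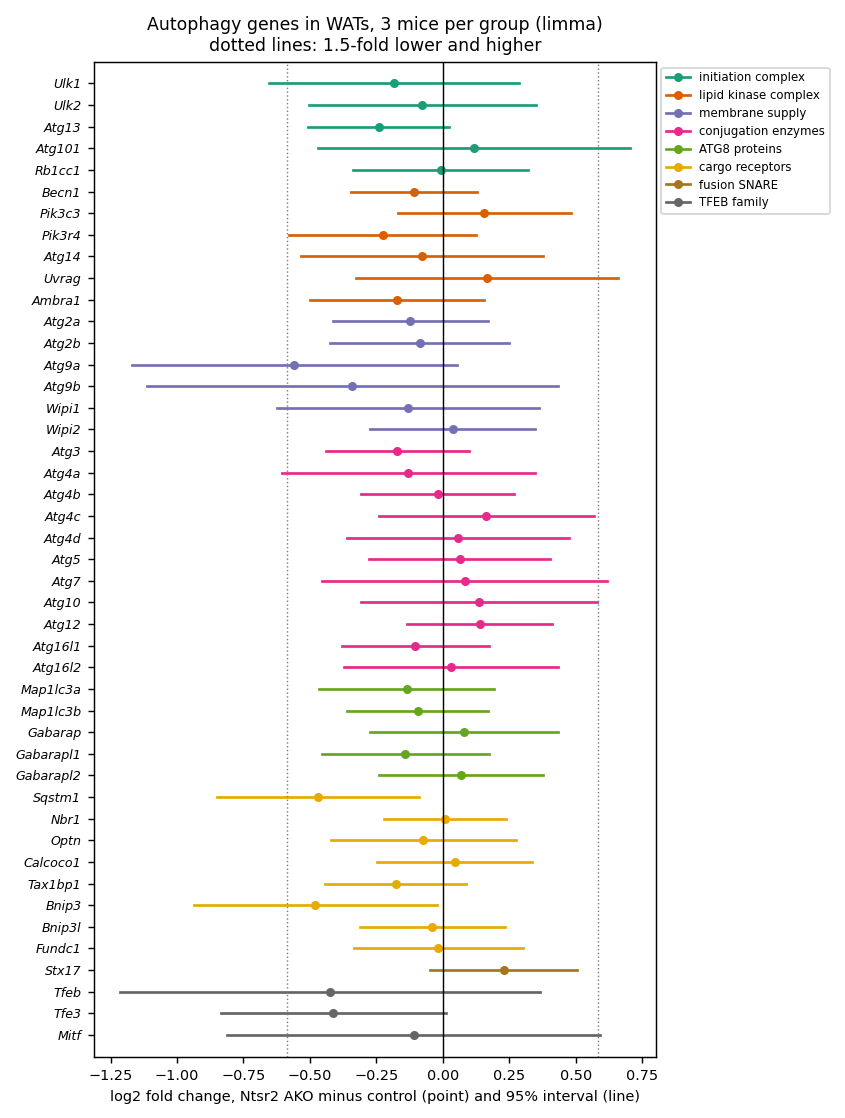
Log2 fold changes of the 45 autophagy genes, Ntsr2 AKO minus control, with 3 mice per group. Points are limma estimates, lines are 95% intervals, colours mark the roles and the dotted lines mark 1.5-fold lower and higher; the intervals of Sqstm1 and Bnip3 alone lie entirely to one side of 0.

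The 2 groups were fully separated for 5 members. Each Ntsr2 AKO mouse lay below each control mouse for Atg13, Becn1, Sqstm1 and Bnip3 (8.89%, against 8.16% of all genes tested), and above for Stx17 (2.22%, against 6.82%). Within each mouse, the median deviation of the 45 genes from their means over the 6 mice was 0.06, -0.001 and 0.03 on the log2 scale in controls 3, 4 and 5 and -0.02, -0.04 and -0.10 in Ntsr2 AKO 3, 4 and 5. The medians of all genes lay between -0.003 and 0.02. The lowest median of the autophagy genes was therefore that of Ntsr2 AKO 5, and the highest that of control 3.

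Transcript levels, given as the normalized count per kilobase of exon and averaged over the 6 mice, spanned about 3 orders of magnitude. Bnip3 was the most abundant at 26513, followed by Map1lc3a at 10309, Gabarap at 9562, Gabarapl1 at 6345 and Sqstm1 at 5499. These 5 genes encode ATG8 proteins and receptors, while the other receptors ranged from 2295 (Bnip3l) down to 735.6 (Calcoco1). Among the initiation genes Atg101 stood highest at 1192 and Rb1cc1 lowest at 206.3. Among the conjugation genes Atg3 reached 1092 and Atg16l2 only 39.93. The lowest of all was Atg9b at 24.63, whereas its ubiquitous relative Atg9a stood at 364.8. The TFEB family lay in the lower part of the range, with Tfe3 at 245.9, Mitf at 175.7 and Tfeb at 125.6. Genes of other roles were as low, such as Uvrag at 126.8 and Pik3r4 at 121.7. Exon length was the union of all annotated exons, so the order depends on it. By mean normalized count Rb1cc1 (3031) stood above Atg101 (1903).

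**Figure D2:**
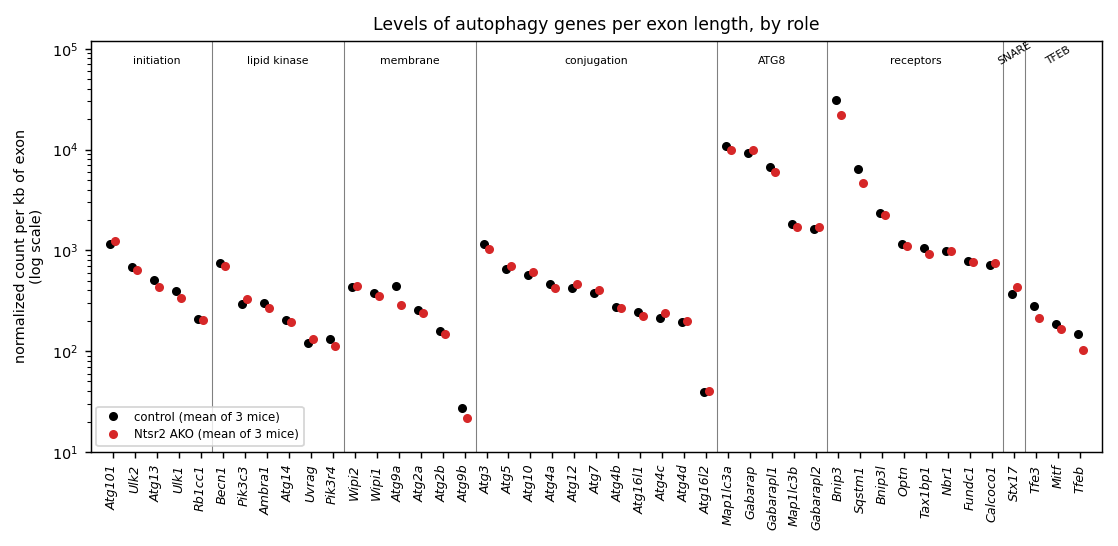
Mean normalized count per kilobase of exon of each autophagy gene on a log axis, in control (black) and Ntsr2 AKO mice (red), n = 3 each, ordered by role and level. The order of the genes spans from Bnip3 at 26513 to Atg9b at 24.63 over all mice, and the group means of most genes nearly coincide.

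The cargo receptors held both genes with an unadjusted p under 0.05. Sqstm1 (chromosome 11, 50199366 to 50210827, minus strand, GRCm38) encodes p62, which links ubiquitylated proteins to LC3 and is itself degraded by autophagy. Its normalized counts were 20387, 18825 and 25176 in control mice and 17592, 14542 and 14206 in Ntsr2 AKO mice. Every control mouse was above every Ntsr2 AKO mouse, with control 5 highest and the nearest values (18825 and 17592) close to each other. The means were 21463 ± 3310 and 15447 ± 1865 (SD, n = 3 each), a log2 fold change of -0.47 (standard error 0.16, 95% interval -0.85 to -0.09). The unadjusted p of 0.0221 became 0.557 after Benjamini-Hochberg adjustment in limma, 0.605 in edgeR and 0.21 in DESeq2. Without control 5 the difference was -0.35, with an unadjusted limma p of 0.0697. Control 5 and Ntsr2 AKO 4 and 5 were the libraries with skeletal muscle transcripts. With the mean log2 value of the muscle markers in each library as a covariate, the difference was -0.48. In the 3 libraries with few muscle reads (2 control, 1 Ntsr2 AKO) it was -0.16. The Ntsr2 AKO mouse among them, number 3, had the highest count of its group. The part of muscle in the difference was not tested.

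Bnip3 (chromosome 7, 138890836 to 138909519, minus strand) encodes a receptor on the outer mitochondrial membrane that directs mitochondria to the autophagosome and is a known target of hypoxia-inducible factor. Its normalized counts were 63980, 85398 and 60971 in control mice and 56236, 49543 and 44185 in Ntsr2 AKO mice. Again no Ntsr2 AKO mouse reached a control mouse, and control 4 stood apart on the high side. The means were 70116 ± 13320 and 49988 ± 6038 (SD, n = 3 each), a log2 fold change of -0.48 (standard error 0.19, 95% interval -0.94 to -0.02). The unadjusted p was 0.0421 and the adjusted p was 0.59 in limma and 0.263 in DESeq2. Without control 4 the difference was -0.33, with an unadjusted limma p of 0.112. In the 3 libraries with few muscle reads it was -0.39.

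The upstream bases of both genes are shown because these 2 genes had the smallest p-values among the members and because the E-box CACGTG, the core of the sites bound by TFEB-family and other bHLH factors, was found before one and not the other. Each line gives 250 bases before the annotated RefSeq start (GRCm38.p6), 5′ to 3′ on the strand of the gene. Capitals mark CACGTG.
Sqstm1, chr11:50210821-50211070, minus strand: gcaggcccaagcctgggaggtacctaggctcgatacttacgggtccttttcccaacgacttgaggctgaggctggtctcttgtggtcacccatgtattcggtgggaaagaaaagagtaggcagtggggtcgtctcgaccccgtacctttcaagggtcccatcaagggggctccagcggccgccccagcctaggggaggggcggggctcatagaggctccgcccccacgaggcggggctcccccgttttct
Bnip3, chr7:138909507-138909756, minus strand: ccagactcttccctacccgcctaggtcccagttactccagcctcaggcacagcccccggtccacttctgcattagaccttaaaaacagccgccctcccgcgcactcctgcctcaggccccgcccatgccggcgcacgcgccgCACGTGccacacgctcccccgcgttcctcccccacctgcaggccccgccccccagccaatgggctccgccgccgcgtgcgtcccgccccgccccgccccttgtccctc
The E-box of Bnip3 begins 108 bases before the start. G and C made up 72.4% of the Bnip3 window and 63.2% of the Sqstm1 window, against a median of 52.4% over all windows.

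RefSeq start windows, from 250 bases before to 50 after each start, were at hand for 38 of the 45 genes, and motifs were searched on both strands. CACGTG was found for 5 of the 38 genes, Atg14, Atg3, Atg5, Atg7 and Bnip3 (13.2%, against 11.3% of the tested genes and 8.09% of all genes with a window). CACGTG preceded by GT and followed by AC, a fuller form of the TFEB-family site, was found for 0 of 38 genes and 0.751% of the tested genes. TGATGNAA, where N is any base, a pattern of ATF4 sites, was found for 0 of 38 and 2.84% of the tested genes. ACGTG, the core of hypoxia-response elements, which CACGTG contains, was found for 17 of 38 (44.7%, against 28.2%), and TGACNNNGC, the core of antioxidant response elements, for 5 of 38 (13.2%, against 16.9%). The last 2 patterns were added after the expression values had been seen. Bnip3 carried CACGTG and ACGTG, and Sqstm1 carried none of the 5 patterns in its window.

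**Figure D3:**
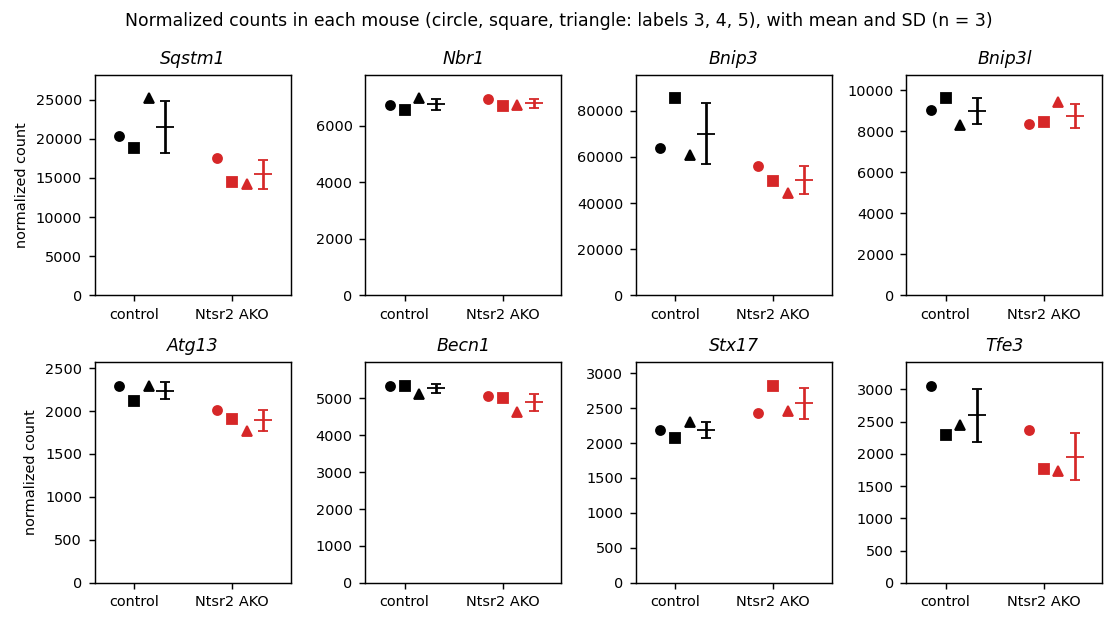
Normalized counts of 8 autophagy genes in each control (black) and Ntsr2 AKO mouse (red); circle, square and triangle are mice 3, 4 and 5, and the bars give mean and SD (n = 3), with axes that start at 0. Sqstm1 and Bnip3 separate the groups, whereas their relatives Nbr1 and Bnip3l do not.

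The closest relatives of the 2 receptors had nearly equal group means. Nbr1, a ubiquitin-binding receptor built like p62, had normalized counts of 6720, 6553 and 6968 in control mice and 6955, 6675 and 6714 in Ntsr2 AKO mice, which overlapped fully. Its log2 fold change was 0.01 (95% interval -0.22 to 0.24). Bnip3l, the second BNIP3-type mitophagy receptor, had 9026, 9603 and 8307 against 8349, 8428 and 9430, with a log2 fold change of -0.04 (95% interval -0.31 to 0.23). The ratio of Sqstm1 to Nbr1 within a mouse was 3.03, 2.87 and 3.61 in control mice and 2.53, 2.18 and 2.12 in Ntsr2 AKO mice, a log2 difference of -0.48 (standard error 0.13). The ratio of Bnip3 to Bnip3l was 7.09, 8.89 and 7.34 against 6.74, 5.88 and 4.69, a log2 difference of -0.44 (standard error 0.18). Both ratios were lower in each Ntsr2 AKO mouse than in any control mouse. The ratio of Tfe3 to Tfeb differed by 0.01 (standard error 0.44). In a two-sided exact permutation test, p was 0.1 for the first 2 ratios, the smallest that 3 against 3 mice can give, and 1 for the third (adjusted over the 3 pairs, 0.15, 0.15 and 1). The pairs were chosen after the values of the genes had been seen.

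The remaining receptors differed little. Tax1bp1, which takes part in the clearance of ubiquitylated cargo and bacteria, had a log2 fold change of -0.18, Optn, a receptor of damaged mitochondria, -0.07, and Fundc1, a mitochondrial receptor, -0.02. Calcoco1, a receptor for the endoplasmic reticulum and Golgi, stood at 0.04. Of the 8 receptors 6 had an estimate below 0 with a median of -0.06, and 6 had an interval within 1.5-fold, the exceptions being Sqstm1 and Bnip3.

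The 5 ATG8 genes were the most uniform role, with every interval within 1.5-fold and a median log2 fold change of -0.09. Gabarap, which acts late in autophagosome maturation and had the highest count of the family, had normalized counts of 15021, 19867 and 16634 in control mice and 17318, 16903 and 20048 in Ntsr2 AKO mice (log2 difference 0.08, limma adjusted p = 0.898). Gabarapl1 had 14260, 13539 and 12342 against 12688, 13188 and 10615 (-0.14, limma adjusted p = 0.786). In both genes the groups overlapped. Map1lc3a, Map1lc3b and Gabarapl2 had log2 fold changes of -0.14, -0.09 and 0.07. Map1lc3b encodes LC3B, the common marker of autophagosomes.

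In the initiation complex 4 of 5 genes had estimates below 0, with a median of -0.08 (0.01 without control 5). Atg13, the adaptor that holds the ULK kinases and FIP200 together, had normalized counts of 2290, 2121 and 2297 in control mice and 2010, 1907 and 1764 in Ntsr2 AKO mice. The groups did not overlap, and the spread within each was small. The means were 2236 ± 99.4 and 1894 ± 123 (SD, n = 3 each), a log2 fold change of -0.24 (standard error 0.11, unadjusted p = 0.0689, adjusted p = 0.615 in limma). The kinase gene with the higher level, Ulk2, had 4084, 3146 and 4926 against 3546, 4145 and 3668 (-0.08), with the Ntsr2 AKO mice inside the range of the controls. Its relative Ulk1 was highest in control 5 at 3274, which was 1.34 times the next library, and had a log2 fold change of -0.18 (0.01 without control 5). Rb1cc1, which encodes FIP200, had a log2 fold change of -0.01, and Atg101 of 0.12.

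Of the 6 genes of the lipid kinase complex 4 had estimates below 0, with a median of -0.09. Becn1 encodes Beclin 1, the scaffold of the complex. Its normalized counts of 5341, 5350 and 5128 in control mice and 5062, 4998 and 4625 in Ntsr2 AKO mice did not overlap, although the means of 5273 ± 126 and 4895 ± 236 (SD, n = 3 each) lay close together (log2 fold change -0.11, limma adjusted p = 0.783). Pik3r4, the regulatory subunit VPS15, had 1296, 1301 and 1194 against 1271, 953 and 1040 (-0.23, limma adjusted p = 0.696). Ntsr2 AKO 3 lay among the controls and the others below them. The catalytic subunit gene Pik3c3 had a log2 fold change of 0.16, and the alternative partners of Beclin 1, Atg14 and Uvrag, had -0.08 and 0.17. Ambra1, a regulator of Beclin 1, had -0.17.

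Among the genes of membrane supply, Atg9a had the largest difference of all 45. ATG9A is a lipid scramblase whose vesicles seed the phagophore. Its normalized counts were 2097, 1897 and 3631 in control mice and 1914, 1545 and 1528 in Ntsr2 AKO mice. Control 5 was 1.73 times the next library, and Ntsr2 AKO 3 lay between the other controls, so the groups overlapped. The log2 fold change was -0.56 (standard error 0.26, unadjusted p = 0.0674, adjusted p = 0.612 in limma), and it was -0.27 without control 5. It was -0.60 with the muscle markers as a covariate and -0.06 in the 3 libraries with few muscle reads. The part of muscle tissue in this difference was not tested further. Wipi2, which reads phosphatidylinositol 3-phosphate and recruits the conjugation machinery, had 4980, 4392 and 4324 against 4963, 5048 and 4075, with a log2 fold change of 0.04. The lipid transfer genes Atg2a and Atg2b had log2 fold changes of -0.12 and -0.09, Wipi1 of -0.13 and the weakly expressed Atg9b of -0.34.

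The conjugation enzymes were the one larger role in which most estimates lay above 0, 7 of 11, with a median of 0.06, and 9 of the 11 intervals lay within 1.5-fold. Atg3, the E2-like enzyme that couples LC3 to phosphatidylethanolamine, had normalized counts of 3655, 3898 and 3392 in control mice and 3108, 3118 and 3497 in Ntsr2 AKO mice (log2 difference -0.17, limma adjusted p = 0.698). Ntsr2 AKO 5 exceeded control 5, and the groups overlapped. Atg7, the E1-like enzyme shared by both conjugation systems, was 0.08, and Atg5, Atg12 and Atg16l1, whose products form the E3-like complex, were 0.06, 0.14 and -0.10 on the log2 scale. Atg10, the E2-like enzyme for ATG12, was 0.14. The 4 Atg4 proteases, which process ATG8 proteins and release them from membranes, ranged from -0.13 (Atg4a) to 0.16 (Atg4c).

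Stx17 is the SNARE of the completed autophagosome and was the single gene with every Ntsr2 AKO mouse above every control mouse. Its normalized counts were 2187, 2078 and 2307 in control mice and 2433, 2824 and 2456 in Ntsr2 AKO mice. The means were 2191 ± 115 and 2571 ± 220 (SD, n = 3 each), a log2 fold change of 0.23 (standard error 0.12, unadjusted p = 0.0903, adjusted p = 0.63 in limma). The highest control and the lowest Ntsr2 AKO mouse were close, at 2307 and 2433.

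With all mice the median log2 fold change of the 3 TFEB-family genes was -0.41, the value of Tfe3. Without control 5 the median was -0.04, the value of Tfeb, while Tfe3 itself stood at -0.45. None of the 3 intervals with all mice lay within 1.5-fold. Tfe3 had normalized counts of 3061, 2288 and 2442 in control mice and 2373, 1759 and 1741 in Ntsr2 AKO mice. Ntsr2 AKO 3 lay between 2 controls and the others below all of them. The means were 2597 ± 409 and 1958 ± 360 (SD, n = 3 each), a log2 fold change of -0.41 (standard error 0.18, unadjusted p = 0.0551, adjusted p = 0.60 in limma). Tfeb, the namesake regulator of lysosome biogenesis, had 648, 545 and 1339 against 628, 555 and 560. Control 5 was 2.07 times the next library and the other 5 mice lay within 545 to 648, so the log2 fold change was -0.43 with control 5 and -0.04 without it. Mitf showed the same mouse highest, with 865, 886 and 1704 against 928, 890 and 1258 (-0.11, and 0.21 without control 5), and Ntsr2 AKO 5 was the second highest. Control 5 was the library with 4.85% skeletal muscle markers, and the part of muscle in the Tfeb and Mitf values was not tested.

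**Figure D4:**
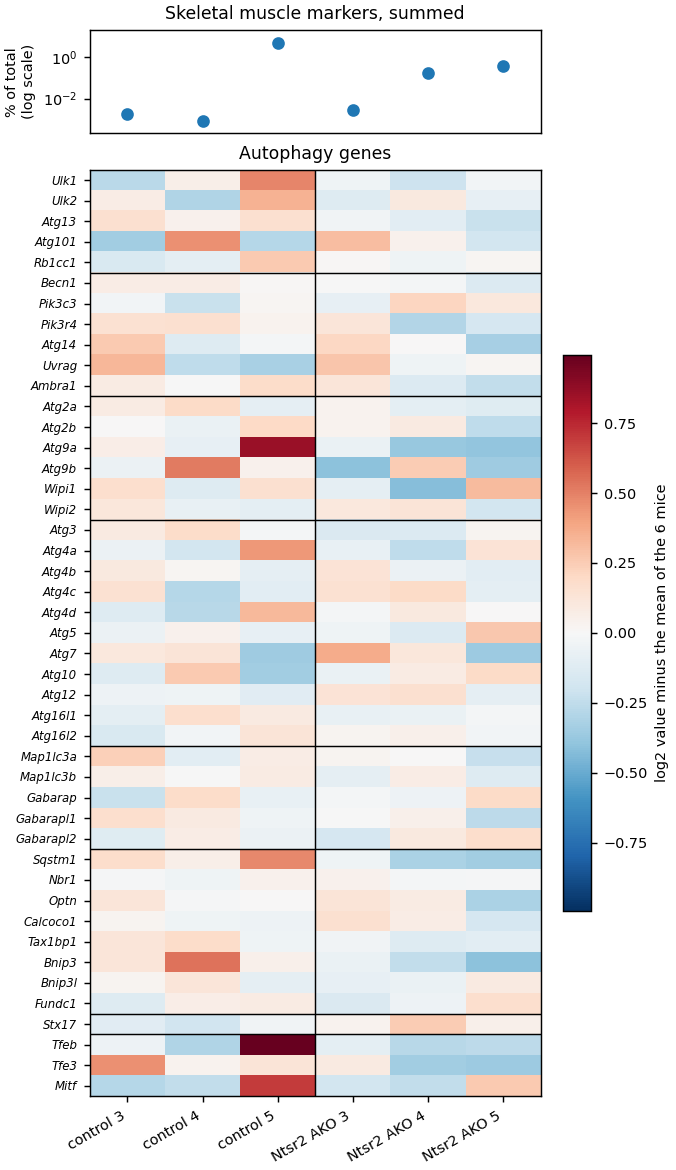
Log2 value of each autophagy gene in each mouse minus its mean over the 6 mice (colour scale), below the share of summed counts held by 12 skeletal muscle markers in the same libraries (points, log axis). Control 5, with the highest muscle share at 4.85%, stands out in Atg9a, Tfeb and Mitf. Sqstm1 is high in control 5 and low in Ntsr2 AKO 4 and 5.

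Control 5 was the highest library for 15 of the 45 genes (33.3%, against 22.0% of all genes tested), among them 4 of the 5 initiation genes and 2 of the 3 TFEB-family genes. Reads were also not unique to one gene everywhere. In 7 of the 45 genes more than 10% of the exon bases overlapped another annotated gene in GENCODE M21, and the library preparation as described does not keep the strand. This share was 43.9% in Becn1 (with Cntd1), 32.6% in Atg9a (with Ankzf1 and Gm29253), 28.3% in Gabarapl1, 22.3% in Bnip3 (with Gm45507), 19.3% in Atg4d, 17.6% in Uvrag and 17.3% in Sqstm1 (with Mrnip). How the overlapping reads were assigned is not described. Bnip3l has an annotated pseudogene, Bnip3l-ps, and a gene named Atg4a-ps, annotated as protein coding, stands beside Atg4a. Either could share reads with its namesake.

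A further 30 genes that act in autophagy were examined, none of them among the 45. Of these 2 had an unadjusted limma p under 0.05, both with lower means in Ntsr2 AKO mice (6.67%, beside the 5.27% over all genes), and 0 had a higher mean at that limit (beside 3.08%). None passed the adjusted threshold. Vmp1 encodes a scramblase of the endoplasmic reticulum that is needed for phagophore growth. Its normalized counts were 13800, 9754 and 10524 in control mice and 9717, 5135 and 7355 in Ntsr2 AKO mice, with the highest Ntsr2 AKO mouse just under the lowest control. The means were 11359 ± 2148 and 7402 ± 2291 (SD, n = 3 each), a log2 fold change of -0.65 (standard error 0.25, unadjusted p = 0.0382, adjusted p = 0.581 in limma). The difference was -0.41 without Ntsr2 AKO 4 and -0.26 in the 3 libraries with few muscle reads, with unadjusted limma p-values of 0.112 and 0.48. Snap29 encodes the SNARE that pairs with syntaxin 17. It had 2495, 2495 and 2344 against 1955, 2047 and 2109, again without overlap and with a narrow spread in each group. The means were 2444 ± 87.3 and 2037 ± 77.6 (SD, n = 3 each), a log2 fold change of -0.26 (standard error 0.10, unadjusted p = 0.04, adjusted p = 0.583 in limma). In the 3 libraries with few muscle reads the difference was -0.35. Snap29 and Stx17, partners in 1 fusion complex, thus had estimates of opposite sign, and the difference between them was not tested. Vmp1 and Snap29 were the 2 of the 30 genes with every Ntsr2 AKO mouse below every control mouse (6.67%, against 8.16% of all genes tested). Wdr45 was the 1 gene with every Ntsr2 AKO mouse above (3.33%, against 6.82%). Over the 30 genes the median log2 fold change was -0.10, and 20 estimates lay below 0 (66.7%, against 51% of all genes tested).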

How the data were processed

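RNA-seq of WATs of 3 control and 3 Ntsr2 AKO mice was analysed. The values that the authors deposited are a signal, the normalized count, meaning the reads of each gene over 1 size factor per mouse. Their methods name Trimmomatic, Hisat2, StringTie and DESeq2. The submitters' processing notes name the build mm10, and the annotation is not given in the sources used here. Whole reads were recovered from the steps of the low values (100% whole within 0.01). No other column of values was present (0). At this depth counting error is small for these genes, so precision was set by the spread between mice.

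Values were analysed in R 4.3.3 as log2(normalized count + 1). Genes with a mean of at least 10 were tested with limma 3.58.1 (lmFit, eBayes with trend), all 6 mice, no covariate, Benjamini-Hochberg adjustment, threshold 0.05. edgeR 4.0.16 and DESeq2 1.42.0 on the recovered reads were alternatives. Further alternatives changed the pseudocount (0.1, 5) or the minimum mean (none, 50), or used quantile normalization, TMM scaling, eBayes without trend, the replicate number as a block, a skeletal muscle covariate and the omission of each mouse. A fit with only the 3 libraries with few muscle reads was added after the data were seen.

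The members, lists and roles were chosen with earlier results of these data known. Values per mouse were given for members with an unadjusted p under 0.05 and, in each role, for the member with the smallest p and that with the highest mean count. For the further autophagy lists they were given for genes with an unadjusted p under 0.05. Nbr1, Bnip3l, Ulk1, Tfeb and Mitf, and genes given by mouse in the closing observations, were picked with their values in view. In simulated counts, limma called 56.1% of 200 genes changed by 2 on the log2 scale and 8 unchanged genes among 15874 tested. Positions are from GENCODE M21 and start windows from RefSeq GRCm38.p6.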

Additional observations from a re-analysis of the deposited data

How the results depend on the processing

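No autophagy gene passed the adjusted threshold in any fit. Of all genes, 1 passed in limma as reported, 220 in DESeq2, and 0 with no filter, without the eBayes trend, in edgeR, with the skeletal muscle covariate, in the 3 libraries with few muscle reads and without any single mouse. Autophagy genes lower at an unadjusted p under 0.05 numbered 2 as reported, 1 after quantile normalization, TMM scaling or edgeR (Sqstm1 each time) and 0 to 3 without 1 mouse. They numbered 0 without Ntsr2 AKO 4 or Ntsr2 AKO 5, and 1 without control 3 (Sqstm1) or control 5 (Bnip3). The number of all genes lower at this limit also moved, from 852 to 414 without Ntsr2 AKO 4 and 601 without Ntsr2 AKO 5. It was 754 without control 3, 544 without control 5, 905 without control 4 and 1104 without Ntsr2 AKO 3. Higher genes numbered 0 as reported and 1 (Stx17) after quantile normalization. Their median, -0.08, became 0.000 after quantile normalization (0.045 over all genes), 0.004 in the 3 libraries with few muscle reads and -0.098 to -0.035 without 1 mouse. Over all genes the split at an unadjusted p under 0.05, 852 lower and 497 higher, was 612 and 633 after quantile normalization. The 3 libraries include 1 Ntsr2 AKO mouse, assumed to vary like the others. The cause of these shifts was not tested.

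Of the further 30 autophagy genes, 2 passed the unadjusted limit as reported, 1 with TMM scaling, edgeR or the muscle covariate, 0 with quantile normalization, without the trend or in the 3 libraries, and 0 to 4 without 1 mouse. Among ER-phagy receptors 1 of 9 passed in DESeq2 and 0 to 1 without 1 mouse. Among nutrient kinases and FOXO genes 1 of 24 passed with the muscle covariate and 0 to 2 without 1 mouse. Without control 4, 4 of the 30 genes and 1 of the 9 passed, beside 905 lower and 488 higher of the 16157 genes tested. Without control 5, 2 of the 24 passed, beside 544 lower and 497 higher of all genes. With the muscle covariate, 902 of all genes were lower and 462 higher. Estimates near 0 reached or crossed 0 for Ulk2 (0.026 after quantile normalization, 0.076 without control 5, -0.248 to 0.076 without 1 mouse), Becn1 (0.000 after quantile normalization), Gabarap (-0.011 without control 3, up to 0.190 without control 4) and Wipi2 (-0.001 without control 5, -0.007 without Ntsr2 AKO 3, -0.019 without Ntsr2 AKO 4, up to 0.136 without Ntsr2 AKO 5). Sqstm1 stayed below 0 in all 18 alternatives (-0.57 to -0.16, an unadjusted p under 0.05 in 14), as did Bnip3 (-0.57 to -0.33, in 10).

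Mice of the 2 groups share the numbers 3, 4 and 5. The deviations of same-numbered mice correlated at 0.445, -0.242 and 0.407 across genes, and those of differently numbered mice at -0.516 to 0.262. The values 0.445 and 0.407 were above all of the latter, and -0.242 was not. The labels name no pairs, and the reported fit treated the mice as unpaired. With a replicate block in the fit, the adjusted threshold was passed by 0 genes. At an unadjusted p under 0.05, 3 autophagy genes were lower (Tfe3 beside Sqstm1 and Bnip3), and 1 of the further 30 genes was. Of all genes, 866 were lower at that limit with the block and 852 in the reported fit.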

Other observations

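Receptors that deliver the endoplasmic reticulum to autophagy, 9 genes of which Calcoco1 is also among the 45, had a median log2 fold change of 0.002. None passed an adjusted p under 0.05 in limma, and 0 had an unadjusted p under 0.05 (beside 5.27% of all genes lower and 3.08% higher). In DESeq2 1 gene, Retreg1, was lower at that unadjusted limit (beside 6.5% of all genes). Retreg1, which encodes 1 of these receptors, had normalized counts of 199.7, 184.7 and 1564 in control mice and 181.7, 232.2 and 64.77 in Ntsr2 AKO mice. The value of control 5, the library with the most skeletal muscle transcripts, stood far above the rest, and the groups overlapped. The log2 fold change was -1.46, and -0.45 without control 5.

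The 24 kinases, nutrient sensors and FOXO factors upstream of autophagy had a median log2 fold change of -0.13, against -0.007 over all genes tested. Of these 17 had an estimate below 0 (70.8%, against 51% of all genes). None passed an adjusted p under 0.05 in limma. An unadjusted limma p under 0.05 was reached by 0 (beside 5.27% of all genes lower and 3.08% higher). Control 5 stood apart for 2 of the 5 listed subunits of AMP-activated kinase, whereas for Prkaa1 and Prkag1 it was the lowest library (2933 and 2403) and for Prkab1 the lowest control (903.6). Prkab2 had 1265, 1956 and 10369 in control mice and 1328, 1609 and 2054 in Ntsr2 AKO mice, and Prkaa2 had 753.8, 512.7 and 4583 against 825.8, 805.4 and 1149. Their log2 fold changes were -0.85 and -0.41 with control 5 and 0.06 and 0.56 without it. For Rragd, a GTPase that signals to mTORC1, control 5 had 3876 and the other libraries 10.12 to 414.9. In each of these 3 genes the highest value was that of control 5, and the part of muscle was not tested.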
